A study of Mus musculus with 8 samples.

Results

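The expression of 9 genes for leukocyte adhesion and niche homing was compared between vehicle-treated and IOX5-treated mouse leukemic cells. The genes (*Cxcr4*, *Cd44*, *Itga4*, *Itgb1*, *Itgal*, *Itgb2*, *Itgam*, *Selplg* and *Cd47*) were chosen by symbol, and all 9 were found among the 54838 genes counted. Poly(A) RNA was sequenced from 4 DMSO samples and 4 IOX5 samples, numbered 1 to 4 in each group. All 8 samples were *iMLL-AF9* cells from mice on the C57BL/6 background, in which doxycycline switches on the *MLL-AF9* fusion, a driver of acute leukemia. Their labels give bone marrow as the tissue, leukemic stem cells as the cell type and WT as the genotype, whereas the design text of the series describes the cells as preleukemic. DMSO is the solvent control and IOX5 is a small-molecule inhibitor of the HIF prolyl hydroxylases (PHDs). The dose, the time of treatment and the animal or culture behind each sample are not stated for these samples, so that p-values measure the spread between the samples, which may be technical.

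Leukemic and normal stem cells stay in the marrow through a few receptor systems. CXCR4 senses the chemokine CXCL12 made by marrow stroma, PSGL-1 (encoded by *Selplg*) rolls on selectins, and integrins, which are pairs of an α and a β chain, hold the cell once they are activated. CD44 binds hyaluronan, and CD47 binds SIRPα on phagocytes and protects the cell from being eaten. PHDs mark HIF-α for degradation, and *Cxcr4* is a known HIF target in several cell types.

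None of the 9 genes passed an adjusted p of 0.05 in the quasi-likelihood test of edgeR without a block (0 of 9, with 1 at an unadjusted p under 0.05, where 20.2% of all genes were), a fit in which 2.02% of the 12405 genes tested passed (0.774% higher and 1.25% lower). DESeq2 called 0 of 9 (8.81% of the 11091 genes with an adjusted p), with 2 of 9 at an unadjusted p under 0.05. The limma voom fit called 0 of 9 (8.35% of the 12405 genes tested), with 3 of 9 at that level. At an unadjusted p under 0.05, these fits held 9.99% of 25356 genes and 26.4% of 12405 genes. The DESeq2 share includes genes that the filter on low counts removed from the other fits, so it cannot be set beside theirs. When the replicate number was added as a block, *Itgam*, the αM chain of Mac-1, rose by 0.55 and *Selplg* by 0.24 on the log2 scale, and the other 7 genes were not called. Across the 9 genes, 2 were thus called higher and 0 lower, in a fit that called 20.7% of all genes (11.2% higher and 9.43% lower). By estimate, 4 genes were higher and 5 lower, and the median log2 fold change of the 9 was -0.020, against 0.017 over all genes tested. *Cxcr4*, the homing receptor, differed between treatments by less than it did between samples of 1 treatment.

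**Figure D1:**
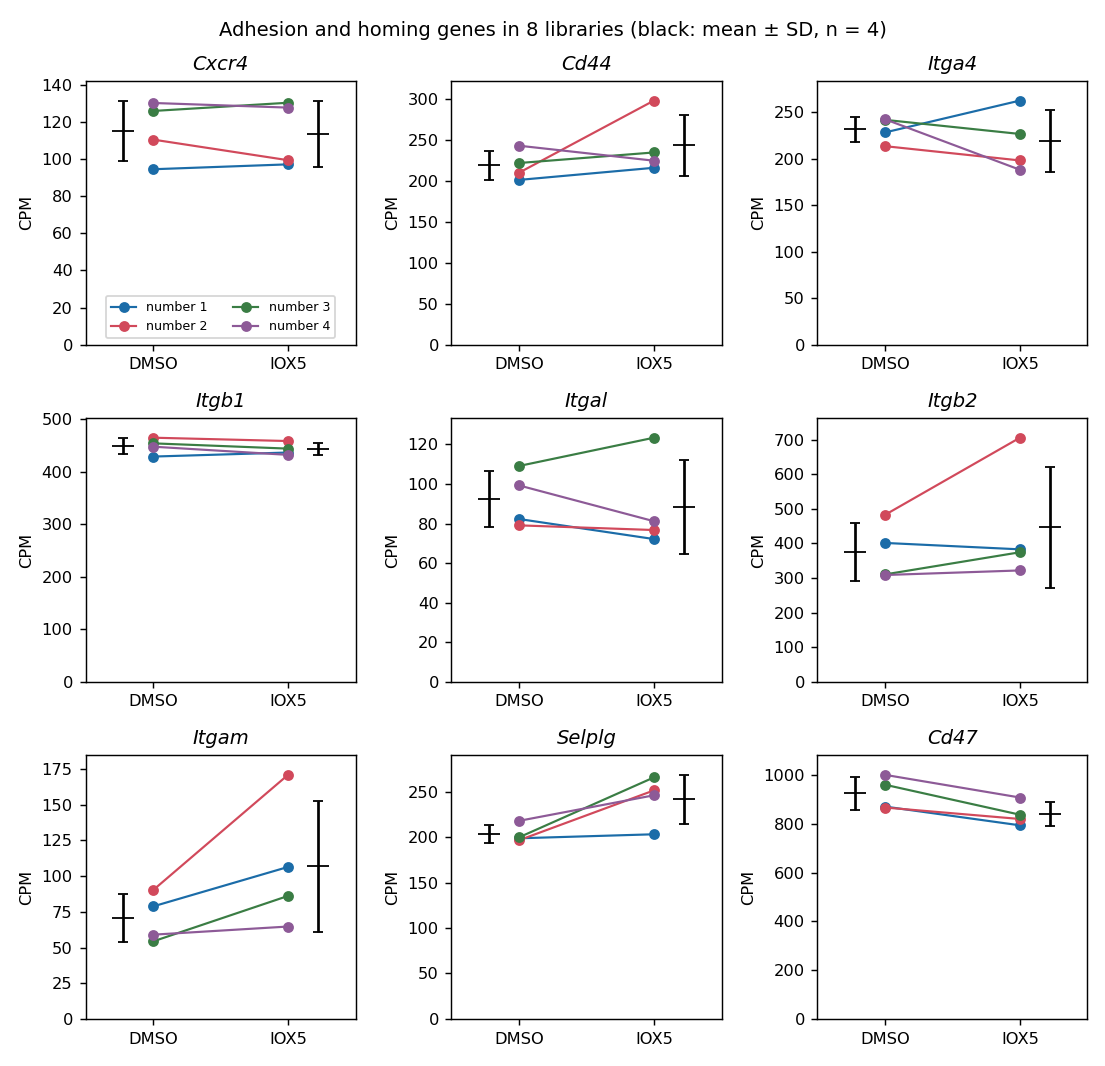
Read counts scaled to library size (CPM, y axis, from 0) of the 9 genes in the DMSO and IOX5 samples. Each point is 1 sample, lines join samples with the same replicate number, and black bars give the mean ± SD of 4 samples. All 4 lines climb for *Itgam* and *Selplg* and all 4 descend for *Cd47*, while the ranges of the groups overlap in every panel.

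Reads counted on genes numbered from 11351507 to 14116054 in a sample, and each of the 9 genes received between 668 and 12961 reads in a sample, so all passed the filter on low counts. Levels are given as CPM, the reads of a gene scaled to the size of its library. None of the 10 genes listed as leukemic stem cell markers was at 0, which does not by itself identify stem cells. *Ptprc* (CD45) was the most abundant of them, at 359 to 554 CPM, whereas *Flt3* held few reads (6 to 54 in a sample, 0.467 to 4.68 CPM). With the block, 4 of these 10 were higher (*Kit*, *Cd34*, *Flt3* and *Myb*) and 2 lower (*Hoxa7* and *Mef2c*), named after their values were seen, and 0 were called without it by edgeR, DESeq2 or limma voom (2, 2 and 3 at an unadjusted p under 0.05). By *Cd34*, samples 1 and 2 (23.2 to 40.4 CPM) stood apart from samples 3 and 4 (133 to 231 CPM) in both groups. Over all genes this split was less clear. IOX5 sample 1 differed more from sample 2 (mean chi-square per gene 29.5) than from samples 3 (18.5) and 4 (22.6). DMSO sample 1 differed from samples 2, 3 and 4 by 14.3, 16.9 and 17. IOX5 sample 2 stood farthest from its group, with a mean chi-square per gene of 29.5 to 41.1 against the other IOX5 samples, which differed among themselves by 9.28 to 22.6. DMSO samples 3 and 4 were the closest pair, at 2.17, where counting noise alone gives about 1.

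*Cxcr4* (ENSMUSG00000045382, chr1:128588199-128592293, minus strand, GRCm38 as for all positions here) encodes the receptor that carries stem cells to the marrow and keeps them there. It had 94.6, 111, 126 and 130.3 CPM in DMSO samples 1 to 4 and 97.2, 99.5, 130.4 and 128 CPM in IOX5 samples 1 to 4. The groups overlapped almost fully, and samples 3 and 4 were above samples 1 and 2 under both treatments. The log2 fold change was -0.020 (SE 0.13, 95% interval -0.32 to 0.28; adjusted p = 0.951, edgeR), and within replicate numbers 2 samples were higher and 2 lower. With the block the interval was -0.16 to 0.12, and *Cxcr4* was not called. *Cd44* (ENSMUSG00000005087, chr2:102811141-102901665, minus strand), the hyaluronan receptor, had 201, 210.1, 222 and 243 CPM with DMSO and 216, 298, 235 and 225 CPM with IOX5. Its mean moved from 219 ± 18.1 to 244 ± 37.3 CPM (SD, n = 4), with IOX5 sample 2 alone above the DMSO range. The log2 fold change of 0.15 (interval -0.095 to 0.40; edgeR adjusted p = 0.475) was 0.040 without that sample.

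The HIF-binding core, written ACGTG or GCGTG, was searched on both strands in the 250 bases before the start site of each gene (RefSeq, GRCm38.p6), because IOX5 acts on the enzymes that control HIF. Of the 9 genes, 6 had an entry, and 38.6% of the 32851 mouse promoter windows held the core. It was present once for *Cxcr4*, once for *Cd44* and 3 times for *Cd47*, and was absent for *Itga4*, *Itgb1* and *Itgam*. For *Itgam*, the letters GAGGAA, the core bound by the myeloid factor PU.1, were found 2 times, as they were for *Cd44*, with 1 match for *Itgb1*, none for the other 3 genes, and at least 1 in 23.3% of all windows. The letters CCAAT were searched as well and had no match in the windows of these 6 genes, where 33.8% of all windows held them. The windows shown are those of the homing receptor, of the gene with the highest mean level and of the gene with the largest estimated change. Capitals mark the HIF core in the *Cxcr4* window (chr1:128592300-128592549, minus strand) and the *Cd47* window (chr16:49855404-49855653, plus strand, the first of 2 listed), and the PU.1 core in the *Itgam* window (chr7:128062390-128062639, plus strand).
Cxcr4: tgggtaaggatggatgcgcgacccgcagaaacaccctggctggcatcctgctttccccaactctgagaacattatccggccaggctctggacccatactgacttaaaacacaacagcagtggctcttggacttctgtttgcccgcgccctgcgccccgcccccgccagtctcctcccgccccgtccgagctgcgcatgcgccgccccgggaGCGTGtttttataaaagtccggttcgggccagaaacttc
Cd47: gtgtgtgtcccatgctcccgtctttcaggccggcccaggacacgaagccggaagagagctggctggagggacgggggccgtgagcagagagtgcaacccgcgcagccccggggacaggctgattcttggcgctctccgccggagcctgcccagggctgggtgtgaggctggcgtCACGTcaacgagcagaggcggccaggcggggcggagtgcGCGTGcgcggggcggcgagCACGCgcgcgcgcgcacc
Itgam: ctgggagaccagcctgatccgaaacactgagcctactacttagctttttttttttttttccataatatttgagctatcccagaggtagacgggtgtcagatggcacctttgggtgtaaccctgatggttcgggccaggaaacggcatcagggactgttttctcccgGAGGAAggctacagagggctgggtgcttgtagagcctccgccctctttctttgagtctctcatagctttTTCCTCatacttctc
The *Cxcr4* match lies 39 to 35 bases before the start, those of *Cd47* begin 76, 37 and 18 bases before it, and those of *Itgam* lie 84 to 79 and 15 to 10 bases before it. These matches describe the letters and are not measured binding sites. The RefSeq start used for *Cd47* lies inside the GENCODE span of the gene (chr16:49800533-49915010), so its window is not upstream of that span.

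*Itga4* (ENSMUSG00000027009, chr2:79255426-79333123, plus strand) and *Itgb1* (ENSMUSG00000025809, chr8:128685654-128733200, plus strand) encode the α4 and β1 chains of VLA-4, which binds VCAM-1 and fibronectin in the marrow. *Itgb1* was the steadiest of the 9 genes, with 429, 465, 454 and 448 CPM in DMSO samples and 437, 458, 444 and 432 CPM in IOX5 samples. Its log2 fold change of -0.020 had the narrowest interval of the set (-0.13 to 0.096; edgeR adjusted p = 0.868). *Itga4* had 228, 213, 242 and 242 CPM with DMSO and 262, 198, 227 and 188 CPM with IOX5, so that IOX5 samples lay both above and below the DMSO range. The log2 fold change was -0.081 (interval -0.32 to 0.16; edgeR adjusted p = 0.715), with 1 sample higher and 3 lower within replicate numbers. On the opposite strand, *Cerkl* overlaps 1124 exon bases of *Itga4*, but it held 182 reads over all samples against 22663.

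The remaining integrin genes share the β2 chain encoded by *Itgb2*. It pairs with αL (*Itgal*) to form LFA-1 and with αM (*Itgam*) to form Mac-1. The αM chain, also known as CD11b, is a marker of myeloid maturation. *Itgb2* lies at chr10:77530252-77565708, plus strand (ENSMUSG00000000290), and both α chain genes lie on chromosome 7, *Itgal* (ENSMUSG00000030830) at chr7:127296260-127335138 and *Itgam* (ENSMUSG00000030786) at chr7:128062640-128118491, plus strand. *Itgb2* had 401, 482, 310.3 and 309 CPM with DMSO and 383, 706, 374 and 322 CPM with IOX5. Sample 2 was the highest of each group, and the estimate rested on it, since the log2 fold change of 0.25 (interval -0.33 to 0.82; edgeR adjusted p = 0.631) became -0.062 without IOX5 sample 2. *Itgal*, which serves LFA-1 binding to ICAM-1, had 82.3, 79.1, 109 and 99.3 CPM with DMSO and 72.2, 76.7, 123 and 81.2 CPM with IOX5. The IOX5 samples spread past both ends of the DMSO range, and the log2 fold change was -0.064 (interval -0.47 to 0.34; edgeR adjusted p = 0.877).

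*Itgam* had 78.8, 90.1, 54.3 and 59.0 CPM in the DMSO samples and 106, 171, 86.1 and 64.7 CPM in the IOX5 samples. Each IOX5 sample was above the DMSO sample of its number, by 0.43, 0.92, 0.66 and 0.13 on the log2 scale for numbers 1 to 4, but the groups overlapped because numbers 1 and 2 began higher. Without the block the log2 fold change was 0.60 (SE 0.29, interval -0.052 to 1.25) and did not pass the threshold (edgeR adjusted p = 0.285). With the block it was 0.55 (SE 0.10, interval 0.33 to 0.76; edgeR adjusted p = 0.00240), and the call was also made by DESeq2 with the block and in 4 of 4 blocked fits that left out 1 replicate number, in which the value ran from 0.41 to 0.68. Leaving out IOX5 sample 2 from the fit without the block lowered the value to 0.28. The count of *Itgam* rests on part of its exons, because 3450 of its 5024 exon bases are shared on the same strand with the readthrough locus *Gm49368*, which held 3 reads over all samples against 8809 for *Itgam*.

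*Selplg* (ENSMUSG00000048163, chr5:113818536-113832644, minus strand), which encodes the selectin ligand PSGL-1, had 199, 197, 199.9 and 218 CPM with DMSO and 203, 252, 266 and 246 CPM with IOX5. The DMSO samples were close together, 3 of 4 IOX5 samples were above all of them, and IOX5 sample 1 fell inside their range. The log2 fold change was 0.25 without the block (SE 0.086, interval 0.055 to 0.44; unadjusted p = 0.0177 and adjusted p = 0.155, edgeR) and 0.24 with it (SE 0.073; edgeR adjusted p = 0.0313). The blocked call was lost without replicate number 2 (0.21, edgeR adjusted p = 0.0528) and without number 3 (0.19, edgeR adjusted p = 0.223). *Cd47* (ENSMUSG00000055447, chr16:49800533-49915010, plus strand), the anti-phagocytic surface protein, had 871, 867, 960.2 and 1001 CPM with DMSO and 794, 819.7, 837 and 908 CPM with IOX5. All 4 IOX5 samples were below the DMSO sample of their number, yet the ranges overlapped, since IOX5 sample 4 exceeded DMSO samples 1 and 2. Its log2 fold change was -0.14 (interval -0.30 to 0.020; edgeR adjusted p = 0.308), and it was not called with the block either (edgeR adjusted p = 0.136).

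*Itgam*, *Selplg* and *Cd47* were the 3 genes whose samples differed in 1 direction in all 4 replicate numbers, with 2 higher and 1 lower, as did 41.2% of all genes tested (21.3% higher and 19.8% lower). In 0 of 9 genes were the groups fully separated, against 14.3% of all genes (5.98% higher and 8.3% lower). In bulk samples, fewer cells of a type and less RNA per cell cannot be told apart.

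**Figure D2:**
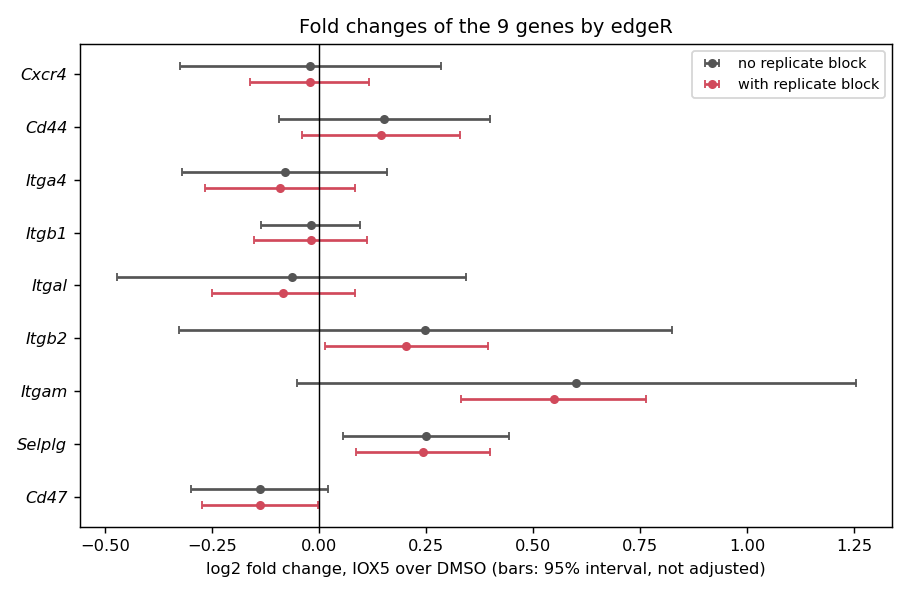
log2 fold change of IOX5 over DMSO (x axis) for the 9 genes (y axis), with unadjusted 95% intervals as bars, from edgeR without the replicate block (grey) and with it (red). The block narrows the interval of *Itgam* from -0.052 to 1.25 down to 0.33 to 0.76, whereas *Cxcr4* and *Itgb1* stay centered near 0.

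Because α and β chains reach the surface as pairs, the ratio of their reads was taken within each library, where it does not depend on library scaling. The ratios were not corrected for exon length or for the shared exon bases of *Itgam*. They compare samples and do not give the relative level of the chains. The log2 ratio of *Itgam* to *Itgb2* was -2.35, -2.42, -2.51 and -2.39 in the DMSO samples and -1.85, -2.04, -2.12 and -2.31 in the IOX5 samples. These groups did not overlap, and the mean moved from -2.42 ± 0.071 to -2.08 ± 0.193 (SD, n = 4), a difference of 0.34 that was higher in 4 of 4 numbers. An exact two-sided permutation test gave p = 0.0286, the smallest it can give with 4 against 4, and p = 0.114 after Benjamini-Hochberg adjustment over 4 ratios. The ratio of *Itgam* to *Itgal*, which compares the α chains that share β2, differed by 0.63 and was also higher in 4 of 4 numbers, but with overlapping groups (exact p = 0.286, adjusted 0.571). For *Itgal* to *Itgb2* the difference was -0.29 (exact p = 0.543, adjusted 0.686), lower in 4 of 4 numbers, and became 0.011 without IOX5 sample 2. For the VLA-4 pair, *Itga4* to *Itgb1*, it was -0.072 (exact p = 0.686, adjusted 0.686), with 3 of 4 numbers lower.

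**Figure D3:**
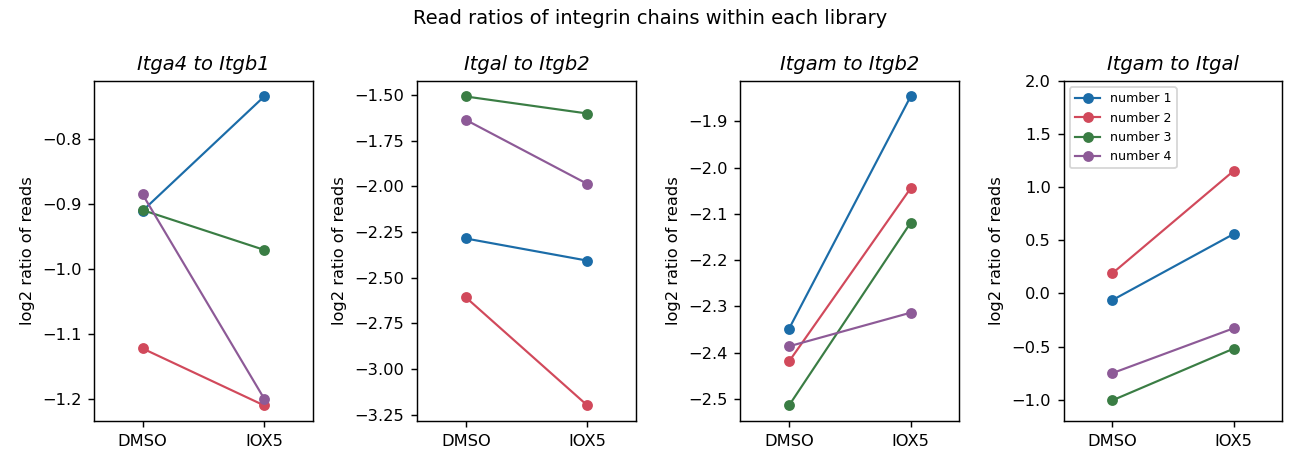
log2 ratio of reads (y axis, which does not start at 0) between integrin chains within each library, in DMSO and IOX5 samples. Lines join samples with the same replicate number. The *Itgam* to *Itgb2* panel is the one in which every IOX5 sample lies above every DMSO sample, from -2.31 to -1.85 against -2.51 to -2.35.

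Levels between genes were compared as CPM per kb of exon. In the DMSO samples *Cd47* was highest at 147 ± 10.6, followed by *Itgb2* at 123 ± 27.3, *Itgb1* at 109.98 ± 3.70, *Cxcr4* at 63.8 ± 8.99, *Selplg* at 47.6 ± 2.31, *Itgam* at 44.8 ± 10.7, *Cd44* at 32.3 ± 2.67, *Itga4* at 16.6 ± 0.978 and *Itgal* at 14.1 ± 2.16 CPM per kb (SD, n = 4). The ranges of neighbors in this order overlapped between *Cd47* and *Itgb2*, between *Itgb2* and *Itgb1*, between *Selplg* and *Itgam*, between *Itgam* and *Cd44*, and between *Itga4* and *Itgal*, and were apart elsewhere. Both β chains were thus above the α chains measured beside them, and 67.8% to 97.8% of the genes tested lay below the 9 genes on this scale. For *Itgam* the 1574 exon bases not shared with *Gm49368* were used, and over all of its exon bases the level would be 14.0 CPM per kb. In the IOX5 samples *Itgb2* was first at 146 ± 57.4 and *Cd47* second at 134 ± 7.78 CPM per kb, but their ranges overlapped and the order rested on IOX5 sample 2, at 231 CPM per kb of *Itgb2*. The other 3 IOX5 samples lay at 105 to 125 for *Itgb2*, below all IOX5 values of *Cd47* (126 to 145).

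The partners of these receptors were followed in 7 lists of 120 genes, of which 119 were found and 90 passed the filter. Without the block, 0 of the 90 were higher and 1 was lower (1.11%, against 2.02% of all genes), with 14 at an unadjusted p under 0.05 (4 for integrin activation, 3 for CXCR4, 2 each for selectins, hyaluronan and Ig-type adhesion, 1 for other integrins and 0 for CD47), which is 15.6% against 20.2% of all genes. Without the block, DESeq2 called 2 higher and 1 lower (*Srgn*, *Alcam* and *Hmmr*), and limma voom 3 higher and 1 lower (*Rgs18* beside the same genes). The counts by list that follow are those of edgeR, to be read beside the shares of all genes given here. The lower gene was *Hmmr*, a hyaluronan receptor that also serves the mitotic spindle, at 106, 119, 125 and 119 CPM with DMSO and 92.0, 79.5, 93.0 and 92.2 CPM with IOX5. Its groups did not overlap, and it fell by 0.39 on the log2 scale (edgeR adjusted p = 0.0426), but the call was kept in 1 of 8 fits that left out a sample (without IOX5 sample 4) and lost in the others, with an adjusted p of up to 0.146. With the block, 22 partners were higher (24.4%, against 11.2% of all genes) and 3 lower, where 9.43% of all genes were lower. Together they made 27.8% of the partners, against 20.7% of all genes. Of these 25, 9 were called in all 4 blocked fits that left out a replicate number, with *Alcam*, *Itgax*, *Itgb7* and *Hmmr* among them. The median log2 fold change of the 90 was 0.093, with 65 higher and 25 lower by estimate.

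On the chemokine side, the ligand gene *Cxcl12* had 1 read in all 8 samples together and the scavenging receptor gene *Ackr3* had 0, so these libraries measured the receptor without its ligand. Of 12 tested genes in the CXCR4 list, 0 were called without the block and 4 were higher with it. *Rgs18*, a regulator of G-protein signaling, had 33.5, 31.6, 28.5 and 26.5 CPM with DMSO and 46.5, 35.3, 35.8 and 36.4 CPM with IOX5, a log2 fold change of 0.36 (edgeR adjusted p = 0.135, and 0.00923 with the block). *Arrb2*, the β-arrestin that takes chemokine receptors off the surface, had a log2 fold change of 0.22 (edgeR adjusted p = 0.211, and 0.0401 with the block). The blocked calls of both depended on single numbers: that of *Rgs18* was lost without number 1 or 3 (adjusted p up to 0.0632) and that of *Arrb2* without number 1, 2 or 3 (up to 0.147). *Grk5*, which phosphorylates such receptors, and *Arrb1*, named after their values were seen, were the other 2 genes called higher with the block, and their calls were lost without number 1, 2 or 3 for *Grk5* (adjusted p up to 0.121) and without number 2 or 3 for *Arrb1* (up to 0.113).

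Among 10 tested genes for other integrins, 3 were higher and 1 lower with the block and 0 without it. *Itgax*, the αX chain that also pairs with β2, had 6.78, 3.58, 2.03 and 2.55 CPM with DMSO and 9.53, 20.1, 3.36 and 3.99 CPM with IOX5. All 4 numbers were higher, with overlap between the groups, and the log2 fold change of 1.30 (SE 0.61; edgeR adjusted p = 0.275) was called with the block (1.17, edgeR adjusted p = 0.00970). Without number 2 the blocked value was 0.59, still called (edgeR adjusted p = 0.0268). *Itga1*, a collagen receptor chain that pairs with β1, had a log2 fold change of -0.37 and was lower in all 4 numbers (edgeR adjusted p = 0.233, and 0.0283 with the block, a call lost without number 1, 2 or 3, with an adjusted p of up to 0.106). *Itgb7*, named after its values were seen because it pairs with α4, had 52.0, 32.4, 102 and 107 CPM with DMSO and 62.0, 57.7, 167 and 132 CPM with IOX5, with a log2 fold change of 0.51 (edgeR adjusted p = 0.568, and 0.00191 with the block). *Itga2b*, the platelet αIIb chain, was the other gene called higher with the block (0.70, edgeR adjusted p = 0.000407).

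The integrin activation list, which also holds genes acting downstream of integrins, gave 4 higher and 0 lower of 23 tested with the block, and 0 without it. *Ptk2b* (PYK2), a kinase acting downstream of integrins, had 104, 104, 102 and 111 CPM with DMSO and 111, 163, 131 and 117 CPM with IOX5 (log2 fold change 0.31; edgeR adjusted p = 0.176, and 0.0294 with the block, lost without number 2 or 3 at up to 0.136). The other blocked calls in the list, named after their values were seen, were *Rasgrp2*, *Parvb* and *Fyb*. The call of *Rasgrp2* was lost without number 1, 2 or 3 (adjusted p up to 0.113, edgeR). That of *Parvb* was lost without number 3 or 4 (up to 0.217) and that of *Fyb* without number 3 (0.111). *Ilk*, the integrin-linked kinase, had a log2 fold change of 0.12 and was not called (edgeR adjusted p = 0.200, and 0.167 with the block). In the list of selectins, their ligands and the enzymes that decorate them, 6 of 14 were higher with the block and 0 without it. *St3gal4*, a sialyltransferase for selectin ligands, had 59.8, 42.7, 56.0 and 61.4 CPM with DMSO and 75.4, 54.1, 73.9 and 70.1 CPM with IOX5, higher in all 4 numbers with overlapping groups. Its log2 fold change of 0.32 was called with the block (edgeR adjusted p = 0.00591) and not without it (edgeR adjusted p = 0.247), and the call was lost without number 3 (0.0649).

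Besides *Hmmr*, the CD44 and hyaluronan list of 11 tested genes gave 1 higher and 2 lower with the block, *Hmmr* among the latter. The others, named after their values were seen, were the proteoglycan genes *Srgn* (0.43, edgeR adjusted p = 0.000743) and *Vcan* (-0.62, edgeR adjusted p = 0.00940, and 0.0556 without number 4). *Vcan* was lower in 3 of 4 numbers but higher in number 2, at 217 CPM with DMSO and 234 CPM with IOX5. It was not called without the block (edgeR adjusted p = 0.646) or by DESeq2 with the block. None of the 7 tested CD47 partners was called with or without the block, with 0 at an unadjusted p under 0.05 without it. Those with the smallest adjusted p were *Qpct* (log2 fold change 0.68, edgeR adjusted p = 0.565), an enzyme related to the one that shapes the SIRPα binding site of CD47, and *Calr* (0.072, edgeR adjusted p = 0.722), an eat-me signal. *Qpct* held few reads, with 24, 9, 4 and 3 in DMSO samples 1 to 4 and 23, 16, 11 and 8 in IOX5 samples 1 to 4. In the Ig-type adhesion list, 4 of 14 were higher with the block and 0 without it by edgeR, whereas DESeq2 and limma voom without the block each called *Alcam*. This gene had 6.56, 6.77, 8.37 and 9.34 CPM with DMSO and 10.5, 23.1, 16.6 and 16 CPM with IOX5, so the groups did not overlap, and its log2 fold change of 1.09 just missed the threshold (edgeR adjusted p = 0.0526, and 0.000695 with the block). *Cd244a*, a receptor of the SLAM family, had a log2 fold change of 0.50 (edgeR adjusted p = 0.222, and 0.00728 with the block, or 0.0536 without number 3). *Pecam1* and *Cd34*, the other blocked calls, had log2 fold changes of 0.43 and 0.65 with the block.

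**Figure D4:**
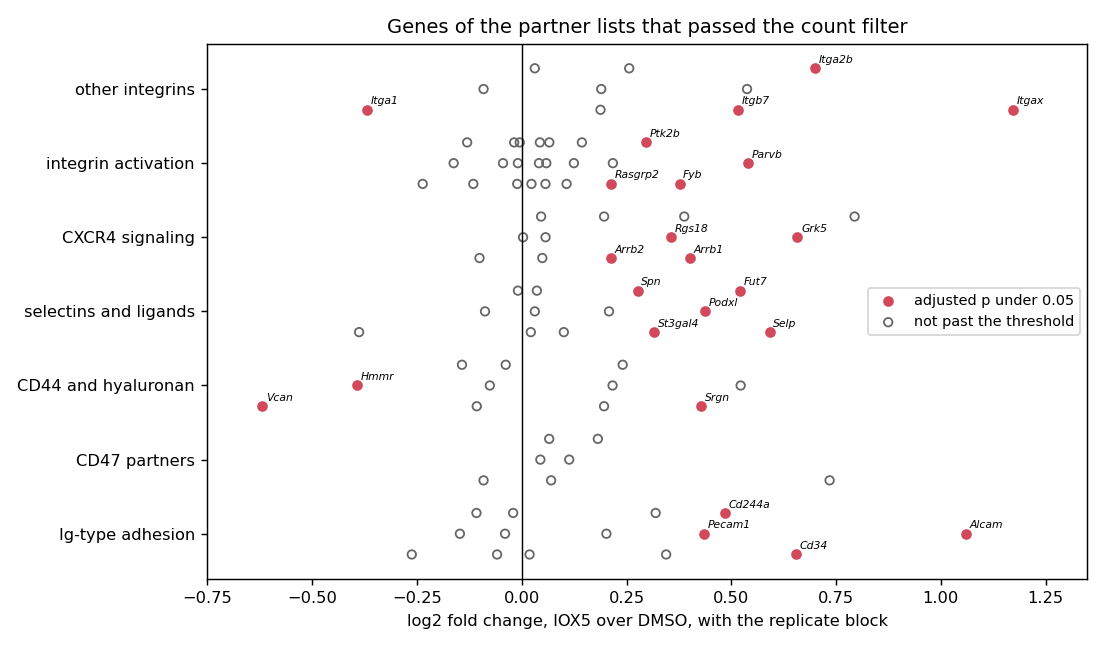
log2 fold change of IOX5 over DMSO with the replicate block (x axis) for 89 of the 90 tested partner genes, by list (y axis; points are staggered only for legibility, and 1 gene of 2 lists is drawn in both). Filled red points passed an adjusted p of 0.05 and are named, 21 to the right of 0 and 3 to the left.

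Markers of other blood cells were also measured, since *Itgam* is a myeloid marker itself. The summed level of 12 macrophage markers was 150 to 210 CPM (lowest to highest) in DMSO samples and 228 to 504 CPM in IOX5 samples, with the highest value in IOX5 sample 2, which also had the most *Itgam*. Of the 7 tested, 2 were higher with the block (*Adgre1* and *Mrc1*, named after their values were seen) and 0 without it by edgeR, but DESeq2 and limma voom called both genes without the block. In contrast, *Vsig4* and *Timd4* were at 0 in every sample and *Cd163* had 1 read in all. *Csf1r*, the most abundant, had 56.1 to 165 CPM with IOX5 against 64.3 to 99.0 CPM with DMSO. Granulocyte markers, led by *Mpo*, summed to 4953 to 7868 CPM with DMSO and 5617 to 8857 CPM with IOX5, with 9 of 15 higher under the block, and 1 without it by DESeq2 and limma voom but 0 by edgeR (1 at an unadjusted p under 0.05). Mast cell and basophil markers, led by *Mcpt8*, summed to 188 to 725 and 330.0 to 1138 CPM. Of these, 8 of 8 tested were higher under the block by edgeR and 7 by DESeq2. Without the block, 0 were called by edgeR, DESeq2 or limma voom. Under the block in edgeR, 11.2% of all genes were higher. Megakaryocyte markers, led by *Itga2b*, summed to 27.2 to 73.9 and 92.0 to 153 CPM, with 4 of 7 tested higher under the block and 1 without it by edgeR (*Vwf*), to which DESeq2 and limma voom without the block added *Ppbp*, both named after their values were seen. The part of these cell types in the values of *Itgam*, *Selplg* and the partner genes was not tested. Markers of stroma and endothelium, led by *Pdgfrb*, were at 3.34 to 6.35 and 3.12 to 6.17 CPM, with 0 called with or without the block. Red cell markers, led by *Hbb-bt*, were at 5.91 to 28.2 and 11 to 43.5 CPM, with 2 of 5 tested higher under the block (*Hbb-bs* and *Hbb-bt*). B cell markers, led by *Cd79b*, were at 3.41 to 10 and 4.61 to 11.9 CPM. Of these, 1 of 2 tested was higher under the block by edgeR (*Cd22*) and 0 by DESeq2. Without the block, 0 red cell or B cell markers were called by edgeR, DESeq2 or limma voom. T cell markers, led by *Trac*, were at no more than 0.260 CPM, and none was tested.

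Among the 3 genes with the profile closest to *Itgam* over the 8 samples, by the root mean square difference of centered log2 CPM among 12037 genes, were the complement gene *C3* (0.116) and *C130050O18Rik* (0.119), where the profile of *Itgam* itself varied by 0.50. For *Selplg*, which varied by 0.16, the closest were *Ost4* (0.053), a subunit of the oligosaccharyltransferase, the small GTPase gene *Rhob* (0.058) and *Gclc* (0.060), which encodes a subunit of the enzyme that starts glutathione synthesis.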

How the data were processed

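Per the labels and the methods of the study, the authors made directional poly(A) libraries, trimmed single-end reads with cutadapt 1.18, mapped them to GRCm38 with HISAT2 2.2.1 and deposited raw read counts per Ensembl gene from HTSeq 2.0.1, without normalization. The annotation release and strand setting of the counting are not given in the sources used here. Names and positions come from GENCODE M21 (54809 of 54838 identifiers matched). The summary lines for unassigned reads (20.6% to 22.6% of each sample's reads) were left out.

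Genes were filtered with filterByExpr (12405 kept), scaled by TMM (factors 0.988 to 1.03) and tested with edgeR 4.0.16 in R 4.3.3 by the quasi-likelihood test, all 8 samples, group only. A gene was called when its p, adjusted over all genes tested (Benjamini-Hochberg), was under 0.05. Intervals are 95% and not adjusted. CPM values are TMM-normalized, log2 CPM used a prior count of 2, and read ratios added 0.5 reads to each count. The ratios were compared by exact permutation over 70 assignments and, as a paired alternative, by 16 sign flips of 4 differences. The fits were tested on simulated data.

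The replicate numbers are shared between groups, and deviations from the group means correlated at 0.758, 0.744, 0.732 and 0.636 within numbers 1 to 4, so the numbers were treated as pairs in a blocked fit. Number 4 correlated more with number 3 (0.685) than with itself. The biological coefficient of variation was 0.202 without the block and 0.0794 with it. Alternatives were DESeq2 1.42.0, limma 3.58.1 (voom with sample weights), other scaling factors and filters, and leaving out samples. The fit with numbers 3 and 4 as 1 level was added after seeing the data.

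The members and lists were chosen with earlier results of these data known. Named genes are all 9 members, and per partner list each gene called without the block or otherwise those with the 2 smallest adjusted p. For members called with or without the block, the 3 closest profiles among genes of at least 1 CPM are named, and for each marker list its most abundant gene. The values of 2 genes that these rules pick are not reported here.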

Additional observations from a re-analysis of the deposited data

Results flagged for a closer look

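Among 26 sets of 4 values examined, 3 held a sample apart from the others of its group by Dixon's test, where chance flags about 1 in 20 sets, or 1.3 of 26. *Itgb2* was at 706 CPM in IOX5 sample 2, against 322 to 383 CPM in the other IOX5 samples. *Selplg* was at 218 CPM in DMSO sample 4, against 197 to 199.9 CPM in the others, which lay close together. The log2 ratio of *Itga4* to *Itgb1* was -1.12 in DMSO sample 2, against -0.91 to -0.89 in the others.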

How the results depend on the processing

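Without the replicate block, the number of the 9 genes called was 0 under every alternative run. With the block it was 2 higher (edgeR, DESeq2, and edgeR with numbers 3 and 4 as 1 level, an alternative added after seeing the data) and 1 to 2 when a number was left out. The block changed the call of no other of the 9 genes. Over all genes, 96 higher and 155 lower became 1394 and 1170 with the block, 1438 and 1216 with numbers 3 and 4 as 1 level, and 994 and 650, 1119 and 1016, 642 and 403, and 1355 and 1058 when the blocked fit left out number 1, 2, 3 and 4. They became 433 and 544 with DESeq2, 901 and 795 with DESeq2 and the block, 426 and 610 with limma voom, 79 and 73 without a filter, and 0 to 130 and 0 to 333 when 1 sample was left out (0 and 0 without DMSO sample 3, DMSO sample 4 or IOX5 sample 3).

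Among the partner genes, 0 higher and 1 lower became 22 and 3 with the block, 23 and 3 with numbers 3 and 4 as 1 level, and 15 and 2, 17 and 3, 9 and 2, and 28 and 2 when the blocked fit left out number 1, 2, 3 and 4. Higher partners numbered 2 with DESeq2, 18 with DESeq2 and the block, 3 with limma voom, 1 without a filter and 1 with at least 10 counts in every sample. Lower partners numbered 0 without a filter and 0 with upper-quartile factors, and leaving out 1 sample gave 0 to 1 in each direction.

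Of 189 alternative fold changes of the 9 genes, 168 kept direction and side of the threshold, 12 passed it only in the alternative (*Itgam* and *Selplg*, with the block) and 9 turned sign. Left-out samples moved *Cxcr4* from -0.10 to 0.059, *Itgal* from -0.27 to 0.024 and *Itgb2* from -0.062 to 0.39. *Cxcr4* became 0.024, 0.059, 0.048 and 0.039 without DMSO sample 3, DMSO sample 4, IOX5 sample 1 and IOX5 sample 2, and 0.020 with the block and without number 2. *Itga4* became 0.0042 with the block and without number 4, *Itgal* 0.024 and 0.022 without DMSO sample 3 and IOX5 sample 1, and *Itgb2* -0.062 without IOX5 sample 2. Without that sample the *Itgal* to *Itgb2* ratio became 0.011. The cause was not tested in any of these. The ratio differences ran from -0.17 to -0.011 for *Itga4* to *Itgb1*, -0.52 to 0.011 for *Itgal* to *Itgb2*, 0.26 to 0.41 for *Itgam* to *Itgb2* and 0.31 to 0.87 for *Itgam* to *Itgal* when 1 sample was left out, where the smallest p that 3 against 4 can give is 0.0571.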
